A study of Rattus norvegicus with 12 samples.

Results

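The genes described here encode the classical class II histocompatibility molecules of the rat and the proteins that load and switch them on. They are RT1-Da, RT1-Db1, RT1-Ba and RT1-Bb, the chains of the D and B molecules, RT1-DMa and RT1-DMb, the chains of the peptide exchange factor, Cd74, the invariant chain, and Ciita, the transactivator. Members were the probe sets of the expression array whose only gene symbol is 1 of these 8, or an older synonym, which gave 14 of the 31042 probe sets that are not manufacturer's controls, for 8 of the 14217 genes named on the array. The genes were chosen by results of shunt against sham in these same data, in which RT1-Da and 1 RT1-Bb probe set stood out, so their values in that comparison are given as a description and not as a test of these genes, and support nothing.

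The tissue came from male Sprague-Dawley rats of 225 to 275 g, 28 days after an aorto-caval shunt, in which an opening made from the aorta into the vena cava overloads the heart with blood volume, or after a sham operation. The 4 groups were left atrial appendage after shunt, left atrial appendage after sham operation, left ventricular free wall after shunt and left ventricular free wall after sham operation, called LA shunt, LA sham, LV shunt and LV sham. Each group had 3 arrays, and each array held labelled RNA of 1 pool of 2 tissues, so 1 rat is never seen alone. No genotype other than the strain is given, and Sprague-Dawley rats are an outbred stock in which animals can carry different histocompatibility alleles. All levels are RMA values on the log2 scale as deposited, where 1 unit is a factor of 2, and levels are not compared between probe sets.

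Class II molecules are pairs of an alpha and a beta chain that hold peptides from ingested protein at the cell surface and show them to helper T cells. Inside the cell the invariant chain Cd74 holds the empty pair together and blocks its groove, proteases trim Cd74 to a short remnant, and DM exchanges that remnant for a peptide. Dendritic cells, B cells and many macrophages make these genes, and many other cells, endothelium among them, make them when interferon gamma induces Ciita. In heart tissue the resident cells known to carry class II are mainly macrophages and dendritic cells. The array measures whole tissue, so fewer cells of a type and less RNA per cell cannot be told apart.

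Ciita binds no DNA itself and acts through a protein complex assembled on paired X and Y boxes just before class II genes. The promoter windows of the 5 members that carry a Y box are shown because they are the common control element of this gene group. The sequences are from RefSeq on assembly GRCr8, 67 bases each, on the gene's strand. The X motif, searched as ACNGATG, and the Y motif, TGATTGG, are in capitals. The motif letters were chosen after the members were known.
RT1-Da, chr20:4515319-4515385, plus strand: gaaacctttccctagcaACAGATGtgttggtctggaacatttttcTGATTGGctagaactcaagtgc
RT1-Db1, chr20:4560223-4560289, minus strand: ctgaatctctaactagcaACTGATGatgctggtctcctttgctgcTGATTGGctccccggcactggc
RT1-Ba, chr20:4576967-4577033, plus strand: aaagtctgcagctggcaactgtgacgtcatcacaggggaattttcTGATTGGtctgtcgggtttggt
RT1-Bb, chr20:4604160-4604226, minus strand: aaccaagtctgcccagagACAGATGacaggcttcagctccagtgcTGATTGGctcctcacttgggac
RT1-DMa, chr20:4712380-4712446, minus strand: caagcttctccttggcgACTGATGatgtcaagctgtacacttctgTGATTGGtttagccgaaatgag

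Promoters of 300 bases, 250 before to 50 after the start of the gene, were at hand for 33469 genes and for 6 of the 8 members, all but RT1-DMb and Ciita. The X motif, ACNGATG, was in 4 of the 6 and in 10.2% of all promoters on either strand, and the Y motif, TGATTGG, was in 5 of the 6 and in 7.06% of all. Motifs that overlapped were not counted as a pair. An X motif followed by a Y motif within 30 bases on the gene's strand was found in 9 promoters of the 33469, or 0.0269%. These were RT1-Da, RT1-Db1, RT1-Bb, RT1-DMa, the further class II genes RT1-Db2 and RT1-DOb, and 3 genes outside the class II family, Hsd17b7, G3bp2 and Tdo2. The gap between X and Y was 20 bases in RT1-Db1 and RT1-Bb and 21 in RT1-Da and RT1-DMa, and the Y motif lay 45 to 82 bases before the start in the 5 members shown. RT1-Ba held these Y letters without these X letters, and Cd74 held neither. A match is a string of letters in this window and was not tested as a binding site, and the arrays carry no measure of binding.

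Every tested comparison below comes from 1 linear model over the 12 arrays and 18625 probe sets (limma, Benjamini-Hochberg adjustment over all of them, two-sided, threshold 0.05), and errors of differences are standard errors (SE) of that model. Of the 14 member probe sets 12 entered it, and 2 were left out because their mean over the 12 arrays was under the filter at 4.01, a probe set each of RT1-Db1 and Ciita. A probe set of RT1-Bb passed through its shunt arrays, with a sham mean below the filter in both chambers. Across probe sets, 2 arrays of the same group correlated at 0.990 to 0.997, and an atrial with a ventricular array at 0.968 to 0.976. LA shunt 3 stood furthest from its group, with a root mean square distance to its group mean of 0.200, against 0.0913 to 0.163 on the other 11 arrays. The signal of the hexokinase control at its 3′ end over that at its 5′ end, a sign of RNA integrity, was also highest there, at 1.44 on the log2 scale, against 0.799 to 1.23 on the others. Of the 8 chamber genes, the 4 atrial ones (Myl4, Myl7, Sln and Nppa) were higher and the 4 ventricular ones (Myl2, Irx4, Myl3 and Kcnip2) lower in left atrium than in left ventricle after both operations, all past the threshold. In LA shunt against LA sham 2 of the ventricular genes also passed, Kcnip2 at 1.33 (limma adjusted p = 0.0108) and Myl3 at 1.13 (limma adjusted p = 0.0256), both higher in LA shunt. Myl2 differed there by 0.71 (limma adjusted p = 0.0993) and Irx4 by -0.32 (limma adjusted p = 0.155), and the part of this in the atrial differences of the class II genes was not tested.

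RT1-Da, the alpha chain of the D molecule, separated shunt from sham arrays in both chambers. Probe set 1370883_at read 8.88, 8.86 and 8.44 on the LA shunt arrays, against 8.11, 8.19 and 8.01 on the LA sham arrays. In the ventricle it read 9.54, 9.58 and 9.50 after shunt, against 8.81, 8.99 and 8.78 after sham operation. All shunt arrays of a chamber were above all its sham arrays, and the 3 LV shunt arrays were the highest of the 12. The group means were 8.73 ± 0.25 in LA shunt and 8.11 ± 0.09 in LA sham (SD, n = 3 each). In the ventricle they were 9.54 ± 0.04 in LV shunt and 8.86 ± 0.11 in LV sham (SD, n = 3 each). The shunt minus sham differences, 0.62 ± 0.11 in left atrium and 0.68 ± 0.11 in left ventricle, are among the values the genes were chosen by.

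RT1-Db1, the beta chain that pairs with RT1-Da, had a tested probe set and a dim one. The tested one, 1370383_s_at, read 6.91, 7.39 and 6.15 on the LA shunt arrays, against 6.31, 6.32 and 6.26 on the LA sham arrays. On the ventricular arrays it read 7.63, 7.97 and 7.71 after shunt, against 7.06, 7.08 and 6.87 after sham operation. The ventricular groups did not overlap, while in left atrium LA shunt 3 lay below all 3 sham arrays and the other shunt arrays above them. The differences were 0.52 ± 0.23 in left atrium, or 0.85 without LA shunt 3, and 0.77 ± 0.23 in left ventricle. The dim probe set, 1370382_at, read 2.74, 3.23 and 2.88 on LA shunt arrays, against 2.68, 2.57 and 2.53 on LA sham arrays, and 3.67, 3.71 and 3.52 on LV shunt arrays, against 2.93, 2.80 and 2.77 on LV sham arrays. Its groups did not overlap in either chamber, but it lay below the filter on every array. The suffix _s of 1370383_s_at marks probes that can match more than 1 transcript, and the near copy RT1-Db2 lies next to RT1-Db1, so the signal cannot be assigned to 1 of the pair.

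RT1-Ba, the alpha chain of the B molecule, had 4 tested probe sets that did not read alike. Probe set 1370822_at read 6.51, 6.59 and 6.16 on the LA shunt arrays, against 5.91, 5.79 and 5.96 on the LA sham arrays. Its ventricular values were 7.55, 7.55 and 7.56 after shunt, against 6.85, 7.16 and 6.42 after sham operation. Shunt and sham arrays did not overlap in either chamber, and the LV shunt arrays lay within 0.02 of each other where the LV sham arrays spread over 0.73. Its differences were 0.53 ± 0.16 in left atrium and 0.74 ± 0.16 in left ventricle.

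Probe set 1377334_at of RT1-Ba read 6.90, 6.72 and 6.04 on the LA shunt arrays, against 5.99, 6.20 and 6.30 on the LA sham arrays, and 6.46, 6.93 and 6.57 on the LV shunt arrays, against 6.79, 6.98 and 6.55 on the LV sham arrays. Groups overlapped in both chambers, and the differences were 0.39 ± 0.20 in left atrium and -0.12 ± 0.20 in left ventricle. Probe set 1381593_x_at differed by 0.13 ± 0.08 in left atrium, where arrays overlapped, and by 0.26 ± 0.08 in left ventricle, where the shunt arrays, at 6.12, 5.91 and 6.04, were all above the sham arrays, at 5.83, 5.82 and 5.65. Probe set 1392334_at, designed on the same sequence record, differed by 0.085 ± 0.08 and 0.076 ± 0.08 and its arrays overlapped in both chambers. The 4 probe sets of RT1-Ba therefore spanned differences of 0.085 to 0.53 in left atrium and of -0.12 to 0.74 in left ventricle. The suffix _x marks probes that can cross-hybridize with similar sequences.

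RT1-Bb, the beta chain of the B molecule, had 2 probe sets, and these gave different pictures. Probe set 1371033_at read 3.68, 6.75 and 5.55 on the LA shunt arrays, against 3.32, 3.34 and 3.36 on the LA sham arrays. The ventricular arrays read 8.03, 7.47 and 6.36 after shunt, against 3.27, 3.66 and 3.69 after sham operation. All 6 sham arrays lay at or below 3.69, within 0.43 of each other, and 5 of the 6 shunt arrays lay at 5.55 or higher. LA shunt 1, at 3.68, was inside the range of the LV sham arrays, though above the 3 LA sham arrays. Its range over the 12 arrays, 4.76, was wider than that of 99.8% of the probe sets tested.

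The other probe set of the same gene, 1371065_at, read 6.85, 5.51 and 5.90 on the LA shunt arrays, against 6.07, 6.15 and 5.96 on the LA sham arrays. In left ventricle the values were 6.81, 6.45 and 6.86 after shunt, against 6.78, 6.96 and 6.36 after sham operation. Shunt and sham arrays overlapped in both chambers, with differences of 0.027 ± 0.27 in left atrium and 0.0031 ± 0.27 in left ventricle. For 1371033_at the differences were 1.99 ± 0.60 and 3.74 ± 0.60. In left atrium the order of the 3 shunt arrays was turned round between the pair, since LA shunt 1 was lowest on 1371033_at and highest on 1371065_at, and LA shunt 2 the reverse. The plot of both probe sets by array shows this. A probe set of a polymorphic gene can read some alleles and not others, and no genotypes were used here, so the alleles in a pool and the level of RT1-Bb cannot be told apart.

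**Figure D1:**
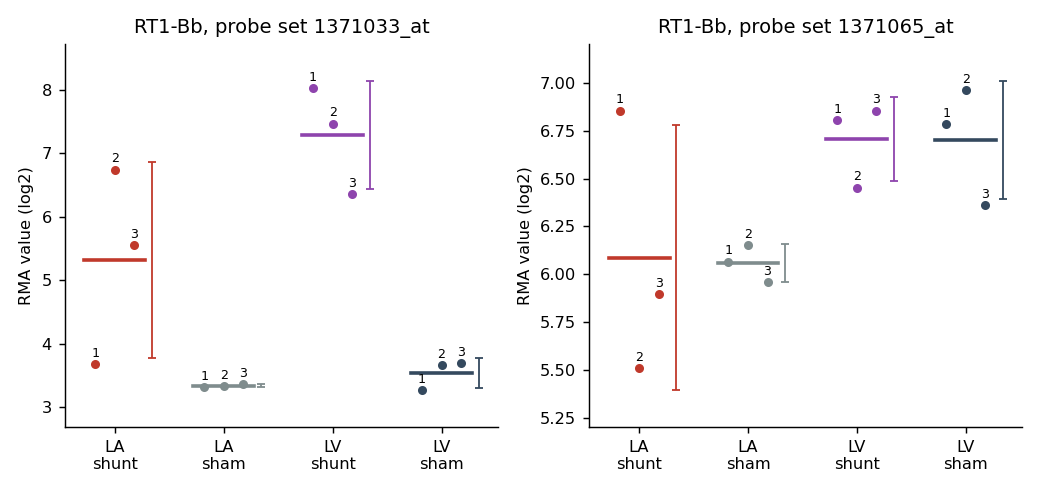
RMA values (log2) of the 2 RT1-Bb probe sets on each of the 12 arrays, as points numbered by replicate, with the group mean as a line and the SD over 3 arrays as a bar beside it. On 1371033_at the 6 sham arrays lie at or below 3.69 and 5 of 6 shunt arrays at 5.55 or higher, while on 1371065_at shunt and sham arrays overlap in both chambers.

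RT1-DMb, the beta chain of the exchange factor DM, read 6.49, 6.72 and 6.16 on the LA shunt arrays, against 6.03, 6.04 and 5.51 on the LA sham arrays (1370882_at). On the ventricular arrays it read 8.31, 8.12 and 8.14 after shunt, against 7.29, 7.68 and 7.28 after sham operation. Of the members it alone had 4 groups with no overlap between any neighbours in the order of the means, which ran LV shunt, LV sham, LA shunt, LA sham. The differences were 0.60 ± 0.17 in left atrium and 0.77 ± 0.17 in left ventricle. Its partner RT1-DMa, on 1370904_at, read 5.01, 4.82 and 4.57 on the LA shunt arrays, against 4.58, 4.70 and 4.86 on the LA sham arrays, which overlapped. On ventricular arrays RT1-DMa read 5.23, 5.26 and 5.25 after shunt, against 4.99, 5.06 and 4.93 after sham operation, which did not overlap, and its differences were 0.085 ± 0.10 and 0.26 ± 0.10.

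Cd74, the invariant chain, was set apart by chamber and not by operation. Probe set 1367679_at read 10.15, 9.90 and 9.82 on the LA shunt arrays, against 10.03, 10.05 and 9.90 on the LA sham arrays. Ventricular values were 11.16, 11.25 and 11.17 after shunt, against 11.01, 11.19 and 11.03 after sham operation. Arrays of both operations overlapped within each chamber, and no ventricular array overlapped an atrial one. The differences were -0.034 ± 0.09 in left atrium and 0.12 ± 0.09 in left ventricle. Its level lay far above the filter, and its groups spread by an SD of 0.05 to 0.17 only.

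Ciita, the transactivator, was close to the filter on its brighter probe set. This probe set, 1369214_a_at, read 4.12, 4.38 and 4.25 on the LA shunt arrays, against 3.83, 4.10 and 4.07 on the LA sham arrays. On ventricular arrays it read 4.43, 4.59 and 4.44 after shunt, against 4.24, 4.61 and 4.53 after sham operation. The atrial groups were apart by the smallest step, 4.12 against 4.10, and the ventricular groups overlapped. The differences were 0.25 ± 0.11 in left atrium and 0.027 ± 0.11 in left ventricle. The other probe set, 1379381_at, lay between 2.95 and 3.60 on all 12 arrays and its groups overlapped in both chambers.

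**Figure D2:**
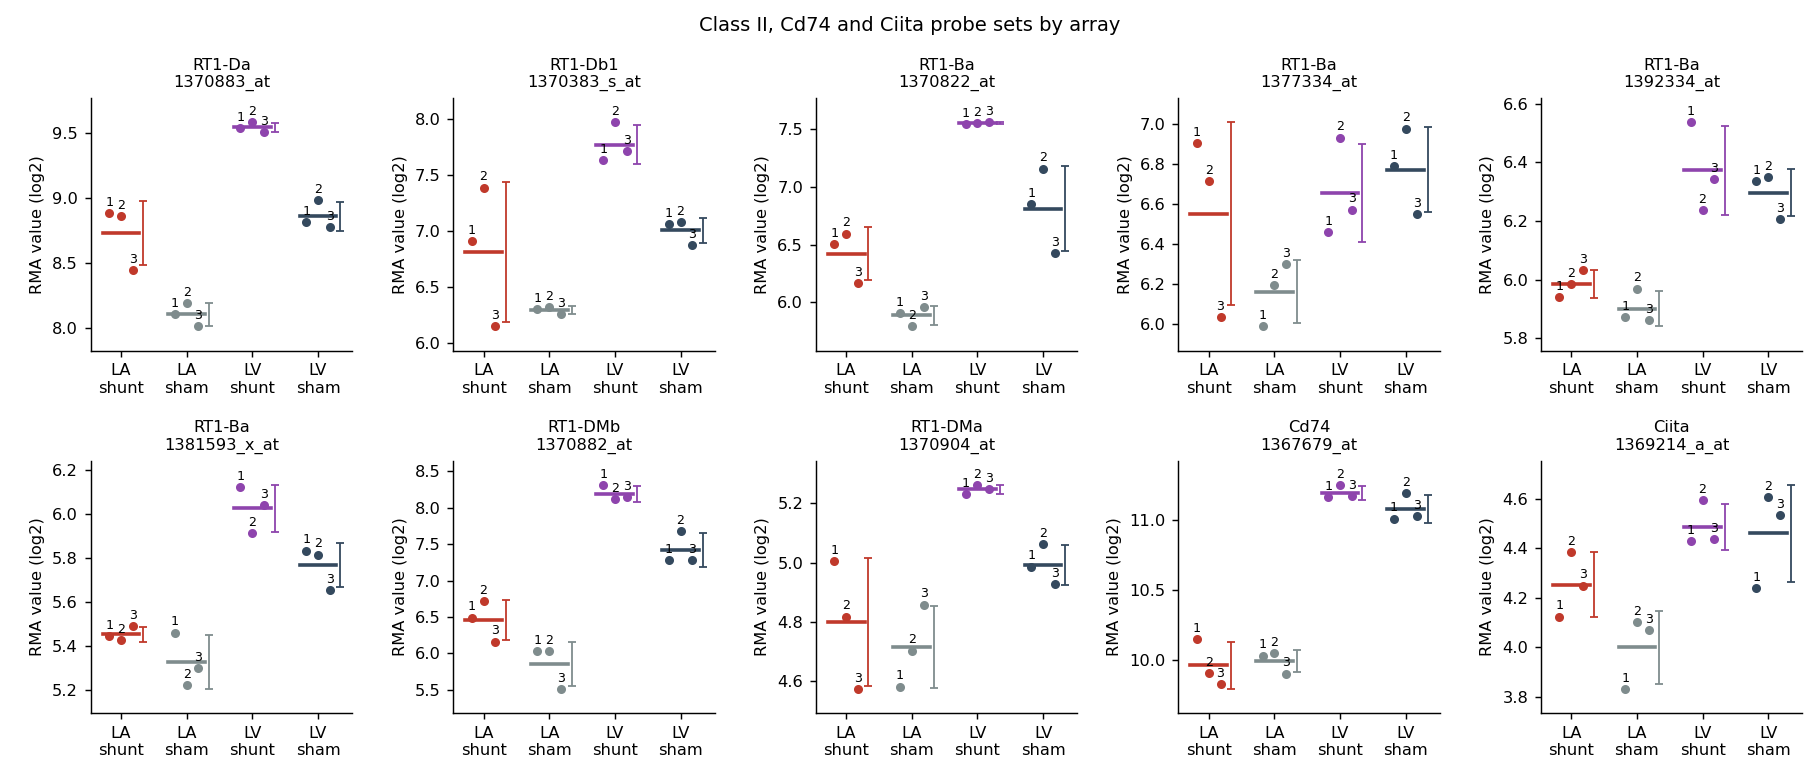
RMA values (log2) of the other 10 tested member probe sets on each array, as points numbered by replicate, with the group mean as a line and the SD over 3 arrays as a bar; each panel has its own scale. Shunt arrays lie above all sham arrays of their chamber in both chambers for RT1-Da, RT1-DMb and RT1-Ba 1370822_at, and overlap them in both for Cd74.

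The shunt comparisons are those the members were chosen with, so the counts that follow record that choice and nothing is read from them. Of the 12 probe sets in the model 1, RT1-Da, lay past the threshold for LA shunt against LA sham, as 1.3% of all did. For LV shunt against LV sham 2 lay past it, RT1-Da and RT1-Bb 1371033_at, as 0.107% of all did. In each comparison 11 of the 12 differences were above 0, against 46.1% of all probe sets in left atrium and 48% in left ventricle. Shunt arrays all lay above sham arrays for 5 of 12 in left atrium (8.33% of all) and for 7 of 12 in left ventricle (10.1% of all). The median difference was 0.32 in left atrium and 0.26 in left ventricle, and over all probe sets it was -0.012 and -0.0068. The counts past the threshold were unsteady, since they ran from 0 to 3 in left atrium and from 0 to 4 in left ventricle when 1 array was left out. In left atrium none passed without LA shunt 2 or any 1 LA sham array, and 3 passed without LA shunt 3. In left ventricle none passed without any 1 LV shunt, LV sham or LA sham array, 1 passed without LA shunt 2 and 4 passed without LA shunt 3. Leaving out 1 array lowers both the number of arrays and the residual degrees of freedom.

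The 3 shunt arrays of a chamber did not carry the differences equally. In left atrium 10, 8 and 7 of the 12 probe sets were above every LA sham array on LA shunt 1, 2 and 3, and their median deviation from the sham mean was 0.47, 0.47 and 0.15. LA shunt 3, the array that stood furthest from its group, was the lowest of the 3 for 7 of the 12. On the 3 LV shunt arrays 8, 8 and 7 of the 12 were above every LV sham array, with median deviations of 0.30, 0.22 and 0.27, and LV shunt 1, 2 and 3 were the lowest of the 3 for 6, 4 and 2. The median deviations were closer together in the ventricle than in the atrium, while in both chambers 1 array was the lowest more often than the others.

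**Figure D3:**
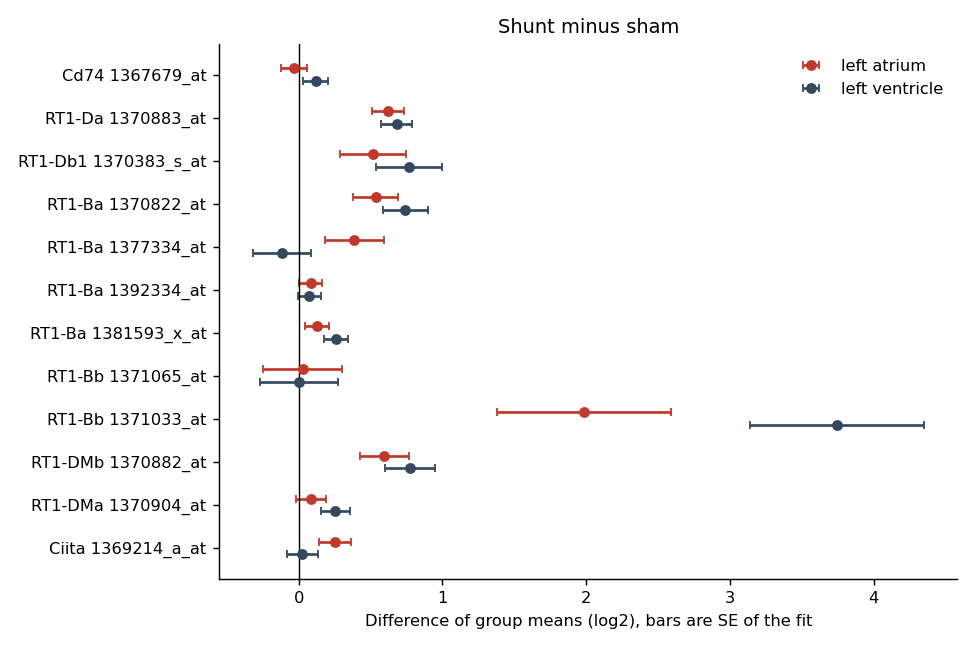
Difference of group means, shunt minus sham, on the log2 scale for each tested member probe set, with the SE of the model as bars, in left atrium and left ventricle. RT1-Da, RT1-Db1, RT1-DMb and RT1-Ba 1370822_at lie between 0.52 and 0.77 in both chambers, Cd74 lies near 0, and the RT1-Bb probe sets lie at 1.99 and 3.74 and at 0.027 and 0.0031.

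Whether the shunt differed in its effect between the chambers was tested as the difference of the effects, left atrium minus left ventricle. None of the 12 probe sets passed (limma, Benjamini-Hochberg), none had an unadjusted p under 0.05, and none of the 18625 probe sets passed. The estimates ran from -1.76 ± 0.85 for RT1-Bb 1371033_at (adjusted p = 0.775) to 0.51 for RT1-Ba 1377334_at. For RT1-Da the estimate was -0.059, and it turned to 0.084 without LA shunt 3.

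Between the chambers the class II genes were lower in left atrium than in left ventricle. The choice of members did not use this comparison as far as is known, but was made with earlier results of these data known. In sham rats 10 of the 12 probe sets, for 7 of the 8 genes, were lower in LA sham than in LV sham past the threshold and none was higher. Of all probe sets tested 22% were lower and 25.2% higher, 47.2% in all, so that a call by itself is common in this comparison. All 12 differences were below 0, with a median of -0.63, against 0.0036 over all probe sets, of which 50.4% lay above 0. Arrays did not overlap for 11 of the 12, all lower in LA sham, against 29% of all probe sets. The 12 include RT1-Bb 1371033_at, whose sham means lay below the filter in both chambers. Without it 10 of 11 probe sets were lower past the threshold, and all 11 differences were below 0, with a median of -0.64.

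RT1-DMb had the most negative atrial minus ventricular difference in sham rats, at -1.56 ± 0.17 (limma adjusted p = 1.79e-05), with 5.86 ± 0.30 in LA sham and 7.42 ± 0.23 in LV sham (SD, n = 3 each). Its partner RT1-DMa differed by -0.28 ± 0.10 (limma adjusted p = 0.0438), a call kept in 6 of 21 alternative fits, whose adjusted p ran from 0.0151 to 0.152. The RT1-DMa difference stayed below 0 in all 21, between -0.35 and -0.21, but it lay at the threshold and is not a firm call.

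Cd74 was lower by 1.08 ± 0.09 in LA sham than in LV sham on the log2 scale (limma adjusted p = 1.59e-06), with 9.99 ± 0.08 in LA sham and 11.08 ± 0.10 in LV sham (SD, n = 3 each). For the D molecule, RT1-Da differed by -0.75 ± 0.11 (limma adjusted p = 0.000163) and RT1-Db1 1370383_s_at by -0.71 ± 0.23 (limma adjusted p = 0.0236). The RT1-Db1 call was lost in 5 of the 12 fits with 1 array left out, those without any 1 LA sham array or without LV sham 1 or 2. Ciita 1369214_a_at differed by -0.46 ± 0.11 (limma adjusted p = 0.00506), with an LA sham mean just under the filter and 4.46 in LV sham. The other Ciita probe set, 1379381_at, lay below the filter and was not tested. It differed by -0.04 in sham rats, where arrays overlapped, and by -0.29 in shunt rats, where they did not.

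For the B molecule all 4 RT1-Ba probe sets passed. They differed by -0.92 ± 0.16 for 1370822_at, -0.61 ± 0.20 for 1377334_at, -0.44 ± 0.08 for 1381593_x_at and -0.40 ± 0.08 for 1392334_at, with limma adjusted p between 0.00051 and 0.0276. The call of 1377334_at was lost in 4 of the 12 fits with 1 array left out, those without LA sham 1 or 2 or LV sham 1 or 2. RT1-Bb was the gene that did not pass, with -0.64 ± 0.27 for 1371065_at (limma adjusted p = 0.0726) and -0.20 ± 0.60 for 1371033_at (limma adjusted p = 0.806). The arrays of 1371065_at did not overlap all the same, with 6.15 as the highest LA sham value and 6.36 as the lowest LV sham value.

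In shunt rats, on other arrays, all differences were also below 0. Sham and shunt arrays both entered the shunt comparisons by which the genes were chosen. Neither chamber comparison is therefore fully independent of that choice. Of the 12 probe sets 9 were lower in LA shunt than in LV shunt past the threshold and none was higher, where 19.4% of all probe sets were lower and 22.4% higher, 41.9% in all. Among the 9, RT1-Bb 1371033_at entered the model only through its shunt arrays and is highest in LV shunt, so its call is not counted further. Without it 8 of 11 probe sets, for 6 genes, were lower in LA shunt. The 11 differences had a median of -0.62, where 49.7% of all probe sets lay above 0, and arrays did not overlap for 9 of the 11, all lower in LA shunt (23.9% of all). RT1-DMb differed by -1.73 ± 0.17 (limma adjusted p = 7.84e-06), with 6.46 ± 0.28 in LA shunt and 8.19 ± 0.11 in LV shunt (SD, n = 3 each). Cd74 differed by -1.24 ± 0.09 (limma adjusted p = 6.1e-07), with 9.96 ± 0.17 in LA shunt and 11.19 ± 0.05 in LV shunt (SD, n = 3 each). RT1-Da differed by -0.81 ± 0.11, RT1-Ba 1370822_at by -1.13 ± 0.16, RT1-Db1 1370383_s_at by -0.96 ± 0.23 and RT1-DMa by -0.45 ± 0.10, with limma adjusted p between 9.56e-05 and 0.00526.

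The probe sets that did not pass in shunt rats were Ciita 1369214_a_at at -0.23 ± 0.11 (limma adjusted p = 0.111), RT1-Ba 1377334_at at -0.10 ± 0.20 (limma adjusted p = 0.711) and RT1-Bb 1371065_at at -0.62 ± 0.27 (limma adjusted p = 0.0905). RT1-Bb 1371033_at passed at -1.96 ± 0.60 (limma adjusted p = 0.0212) although its arrays overlapped, with 6.75 as the highest LA shunt value and 6.36 as the lowest LV shunt value. Without LA shunt 1 this difference was -1.14 and did not pass, and it also lost its call without LV shunt 1 or LV shunt 2. The sham and shunt comparisons use different arrays of the same study but 1 estimate of the spread.

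**Figure D4:**
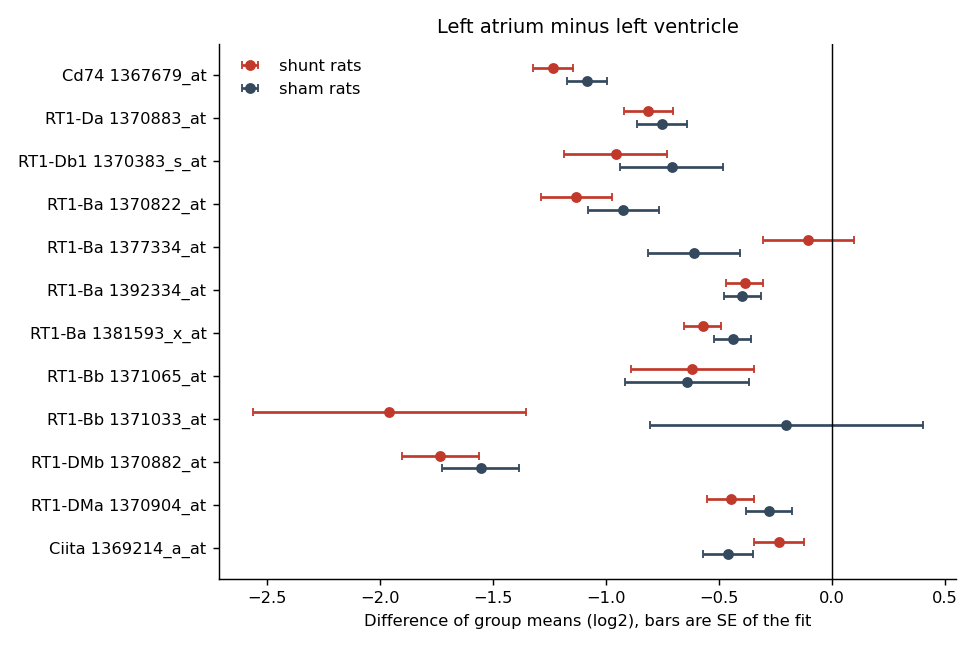
Difference of group means, left atrium minus left ventricle, on the log2 scale for each tested member probe set, with the SE of the model as bars, in shunt and in sham rats. All 24 points lie below 0, and RT1-DMb lies at -1.73 and -1.56 and Cd74 at -1.24 and -1.08.

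Over the 4 groups the means ran LV shunt, LV sham, LA shunt, LA sham for 9 of the 12 tested probe sets. For RT1-Da and RT1-Ba 1370822_at LV sham and LA shunt were the neighbours whose arrays overlapped, and the other neighbours were apart. For RT1-Db1 1370383_s_at and RT1-DMa the LA shunt arrays overlapped those of both neighbours, LV sham and LA sham. For Cd74 the order was LV shunt, LV sham, LA sham, LA shunt, with overlap within each chamber and none between chambers. RT1-Bb 1371033_at had LA shunt above LV sham, with overlap between all neighbours in the order, and RT1-Ba 1377334_at had LV sham above LV shunt.

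The genes whose values over the 12 arrays ran most like Cd74 were Tpi1, a glycolytic enzyme (Pearson r = 0.996), Trim72, a membrane repair protein of striated muscle (0.993), Esam, an endothelial adhesion molecule (0.992), Card9, a signalling adaptor of myeloid cells (0.992), and Irx3, a transcription factor of the ventricular conduction system (0.991). All 5 were higher in both ventricular groups than in both atrial groups by their means. The genes most like RT1-Bb 1371033_at were Armc7 (0.901), Dguok (0.893), Vps52 (0.885), Atic (0.877) and Card19 (0.867). These are the 5 highest values for each of the 2 probe sets among all that were tested, the arrays fall into 2 chambers, and they are given as a description.

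The fixed lists of neighbouring pathways were described by the tested probe set of highest mean for each gene. Over these lists, which leave out the members and the chamber genes, 97 genes were tested, and none passed in LA shunt against LA sham or in LV shunt against LV sham (limma, Benjamini-Hochberg), with 12 and 17 at an unadjusted p under 0.05. Those nearest to it were Lyz2, the lysozyme of macrophages, at 0.62 ± 0.15 (limma adjusted p = 0.0657) and Psme1, a proteasome activator subunit, at -0.42 ± 0.10 (limma adjusted p = 0.0657) in left atrium. In left ventricle it was Gbp2, an interferon induced GTPase, at 0.34 ± 0.08 (limma adjusted p = 0.0989). Between the chambers 47 of the 97 passed in sham rats and 50 in shunt rats, near the 47.2% and 41.9% of all probe sets, so calls between chambers are common in these lists as elsewhere. The lists are described in turn from the class II pathway outwards.

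Of 9 tested genes of class II peptide loading and processing, 8 had differences above 0 in left atrium (median 0.11) and 7 in left ventricle (median 0.09). Ctsl, cathepsin L, differed by 0.24 ± 0.07 and 0.21 ± 0.07. In sham rats 4 of the 9 were higher and 1 lower in LA sham than in LV sham. The higher ones were the proteases Ctsb at 0.51, Ctsl at 0.54 and Ctsh at 0.40, and Marchf8, a ubiquitin ligase of membrane proteins, at 0.72, and the lower one was the protease Lgmn at -0.27. These 5 calls of 9 are near the 47.2% of all probe sets. In shunt rats 5 were higher and 1 lower.

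Of 9 tested genes of class II transcription, 2 were higher and 2 lower in LA sham than in LV sham, also near the 47.2% of all. Rfx5, a subunit of the complex that binds the X box, was higher by 0.82 and Nfyb, a subunit of the factor that binds the Y box, by 0.49. Rfxank, another subunit of the X box complex, differed by -0.28 and Irf8, a myeloid transcription factor, by -0.46. In LV shunt against LV sham 7 of the 9 lay above 0 (median 0.16), with Nfya at 0.26 ± 0.07 (limma adjusted p = 0.131) and Irf1 at 0.31 ± 0.08 (limma adjusted p = 0.139). In left atrium 5 of the 9 lay above 0, with a median of 0.0052.

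Of 14 tested genes of the interferon gamma pathway, 8 were lower and 1 higher in LA sham than in LV sham, and 11 lower and none higher in LA shunt than in LV shunt. Of all probe sets 22% were lower in LA sham and 19.4% in LA shunt. Cxcl11, a chemokine that attracts activated T cells, differed by -4.26 ± 0.16 in sham rats (limma adjusted p = 3.04e-09) and by -4.58 ± 0.16 in shunt rats (limma adjusted p = 2.06e-09). Its LA shunt mean was 3.79, below the filter. Cxcl9, which binds the same receptor, differed by -1.62 ± 0.10 in sham rats (limma adjusted p = 2.18e-07). Gbp2, Psmb8, Psmb9 and Psmb10 were also among the lower ones after both operations, and the Psmb genes encode immunoproteasome subunits. Between shunt and sham the medians were -0.013 in left atrium and 0.011 in left ventricle. Ifng itself, Cxcl10 and Ido1 were below the filter.

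Of 14 tested class I genes, 2 were higher and 2 lower in LA sham than in LV sham, a smaller share than the 47.2% of all probe sets. Calr and Pdia3, chaperones of the endoplasmic reticulum, were higher at 0.50 and 0.74, and Tap1, a peptide transporter subunit, and RT1-CE5 were lower at -0.46 and -0.35. The class I medians between shunt and sham were 0.026 in left atrium and 0.024 in left ventricle. Of 4 tested costimulation genes, Icam1, an adhesion molecule, was higher in LA sham by 0.81, and Cd80 and Cd86, the main costimulatory ligands, were below the filter.

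Class II genes lie side by side on rat chromosome 20, and the region from RT1-Da to RT1-DOa was looked at after the members' values had been seen. It holds 15 protein-coding genes in the RefSeq table, of which 11 are on the array under a single symbol and 6 are members. Of 7 probe sets of the other genes 6 were tested and none passed in either shunt comparison (limma adjusted p of 0.308 to 0.933 in left atrium and of 0.217 to 0.937 in left ventricle). Tap2 differed by -0.26 in left atrium and -0.29 in left ventricle, Psmb8 by -0.14 and -0.12, Tap1 by 0.14 and 0.13 and Psmb9 by -0.028 and 0.17. The 2 probe sets of Brd2, a bromodomain protein, differed by -0.085 and -0.33 for the dimmer and by 0.042 and -0.025 for the brighter. In LA sham against LV sham Psmb8 differed by -0.42, Tap1 by -0.46, Psmb9 by -0.47 and the dimmer Brd2 by -0.49. These were past the threshold (limma adjusted p of 0.00141 to 0.00774), as 22% of all probe sets were in that direction. Tap2, at -0.11, and the brighter Brd2, at 0.22, did not pass. Lower values in LA sham were thus not particular to the members in this region. The widest range of a non-member probe set in the region was 1.02, for Psmb9. Ranges of the tested member probe sets there ran from 0.67, for RT1-Ba 1392334_at, to 4.76, for RT1-Bb 1371033_at.

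Markers of the cells that carry class II are given beside the members, and none passed between shunt and sham. Of 7 tested pan leukocyte genes, 7 had differences above 0 in LA shunt against LA sham (median 0.19) and 6 in LV shunt against LV sham (median 0.18), none past the threshold. Their mean read 5.93, 5.88 and 5.33 on LA shunt arrays, against 5.45, 5.62 and 5.52 on LA sham arrays. In the ventricle it read 6.13, 6.33 and 6.09 after shunt, against 5.99 to 6.04 after sham operation. The ventricular groups did not overlap, and in left atrium LA shunt 3 lay below the sham arrays and the other shunt arrays above them, as for RT1-Db1. In sham rats 5 of the 7 were lower in LA sham and none higher, among them Coro1a at -0.70, Lcp1 at -0.56, Ptprc at -0.53 and Itgb2 at -0.48. Of all probe sets 22% were lower and 25.2% higher in that comparison.

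Of 15 tested macrophage genes, 11 lay above 0 in LA shunt against LA sham (median 0.11) and 13 in LV shunt against LV sham (median 0.22), none past the threshold. Their mean read 6.53, 6.63 and 6.10 on LA shunt arrays, against 6.27, 6.33 and 6.35 on LA sham arrays, and 6.48, 6.74 and 6.50 on LV shunt arrays, against 6.41, 6.39 and 6.35 on LV sham arrays. LA shunt 3 was again the lowest array, and the ventricular groups did not overlap. In sham rats 4 were lower in LA sham, Tyrobp, Lyz2, Itgam and Fcer1g, at -0.62 to -0.47, and 2 were higher, Lyve1 at 1.15 and Cd163 at 0.60, which mark resident macrophages. As a share of the 15 these calls were not more frequent than the 47.2% of all probe sets. Itgam passed the filter through its ventricular arrays, with means of 3.82 in LA sham and 3.83 in LA shunt. Cd163 had an LV sham mean of 3.82, also below the filter, so both calls are given as a description. Adgre1, Fcgr2b and Fcgr3a were below the filter.

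Of 6 tested dendritic cell genes, 2 were lower in LA sham than in LV sham, Batf3 at -0.30 and Itgax at -0.45, and 2 of the 6 lay above 0, with Flt3 at 0.39 (limma adjusted p = 0.0798). In shunt rats Batf3 and Itgax were again lower and Flt3, a growth factor receptor of dendritic cell precursors, was higher in LA shunt than in LV shunt at 0.56 (limma adjusted p = 0.0213). Flt3 had an LV shunt mean of 3.97, below the filter. Clec9a was below the filter. Most defining lymphocyte markers were also below it, namely Ms4a1, Cd79b, Blk and Cr2 for B cells and Cd3e, Cd3d, Cd3g, Cd247, Cd5, Cd8a, Cd8b and Cd28 for T cells. The 2 tested B cell genes, Cd22 and Fcrla, differed by -0.20 and -0.31, both past the threshold, and of the 2 tested T cell genes Cd2 passed at -0.33. Of 9 tested endothelial genes 5 were lower in LA sham, with Kdr at -0.76, Tie1 at -0.67 and Esam at -0.60, and Vwf was higher at 0.89. Of 7 tested cardiomyocyte genes 1 was higher and 1 lower. Over all probe sets 22% were lower and 25.2% higher in LA sham than in LV sham. The part of these cell types in the differences of the class II genes was not tested.

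**Figure D5:**
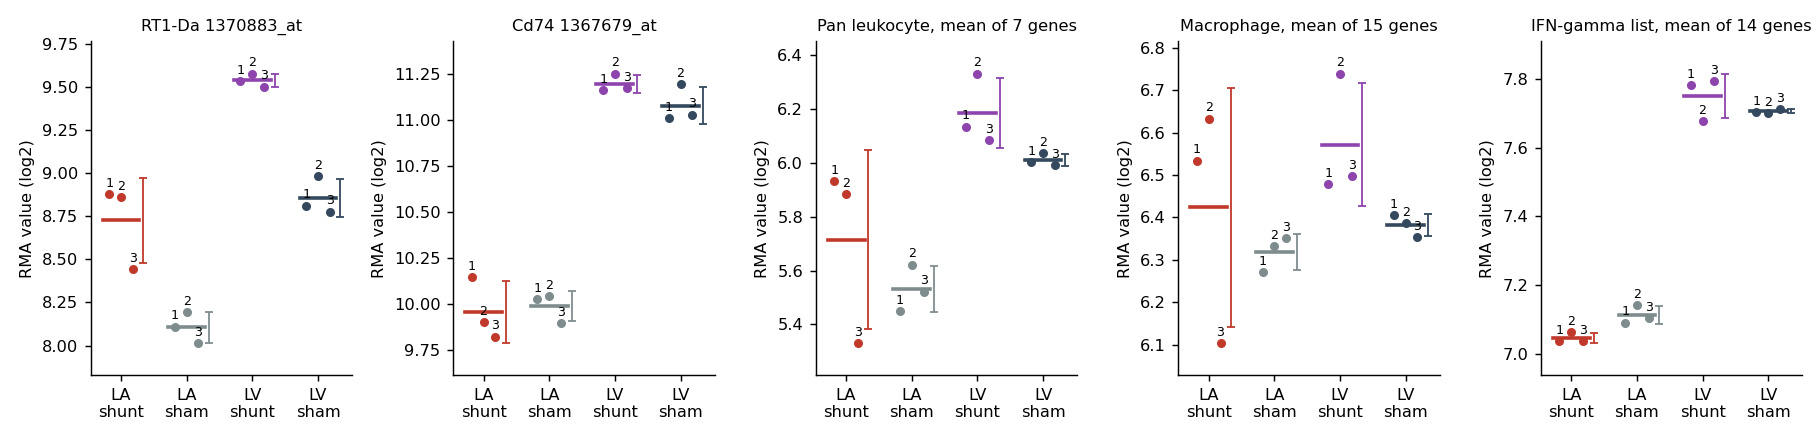
RMA values (log2) of RT1-Da and Cd74 and the mean value of the tested pan leukocyte, macrophage and interferon gamma (IFN-gamma) genes on each array, as points numbered by replicate, with the group mean as a line and the SD over 3 arrays as a bar; each panel has its own scale. The pan leukocyte and macrophage means have LA shunt 3 as their lowest array, and the interferon gamma mean separates the chambers with all ventricular arrays above all atrial ones.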

How the data were processed

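RNA of 12 pools was hybridized to 12 one-colour Affymetrix rat arrays, after labelling of 10 µg of total RNA per the labels' protocols. The deposited values are log2 RMA values per the submitters' processing notes; the RMA version and the array's genome build are not given in the sources used here. Array precision rests on 3 arrays per group. Of 31099 probe sets, 57 controls were left out, and those with a mean at or above the 40th percentile (4.01) were tested, 18625 in all. Symbols came from the platform annotation, updated through Entrez identifiers (20826 probe sets with 1 symbol, 436 with several, 9780 unnamed here; 20758 updated, 68 kept as given).

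Limma 3.58.1 in R 4.3.3 fitted 1 mean per group (lmFit, eBayes; 8 residual and 3.68 prior degrees of freedom), with 5 contrasts, two-sided p-values and Benjamini-Hochberg adjustment. The fit was tested on simulated data. P-values measure the spread between pools. All tested members and the genes nearest in pattern to Cd74 and to the member of widest range were named, and up to 4 passing genes of a list, otherwise the 1 or 2 of smallest p; others were named after their values were seen. The members and lists were chosen with earlier results of these data known. Alternatives were other filters, normalizations, array weights, prior, arrays in the fit, replicate blocks and leaving out arrays.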

Additional observations from a re-analysis of the deposited data

How the results depend on the processing

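The counts of member probe sets called between shunt and sham depended on the fit. In left atrium the count of 1 became 5 with array weights, 0 when only the groups compared were fitted, and 0 to 3 with 1 array left out. In left ventricle the count of 2 became 1 with the filter at the 60th percentile, which drops RT1-Bb 1371033_at, 1 with a trended and robust prior, 4 with the hexokinase 3′ minus 5′ difference as a covariate, an alternative chosen after seeing the data, and 0 to 4 with 1 array left out. Taking the replicate number as a block gave 1 there and left the left atrial count at 1. Between chambers the count of 10 in sham rats lay between 8 and 11 over the other settings and between 7 and 11 with 1 array left out, and the count of 9 in shunt rats between 7 and 11 and between 8 and 9. Under the replicate block these were 9 and 10, and under the block within operation 10 and 11. The main count of 9 in shunt rats includes RT1-Bb 1371033_at, which entered the model only through its shunt arrays. Its call was kept in 9 of the 12 fits with 1 array left out, and without this probe set the main count was 8 of 11. With a block, RT1-DMa in sham rats no longer passed (limma adjusted p = 0.0622, and 0.0551 within operation), Ciita in shunt rats passed (0.0210 and 0.0183), and RT1-Bb 1371065_at passed within operation (0.0236 in sham and 0.0301 in shunt rats). The labels do not say whether atrial and ventricular pools of 1 number came from the same rats. The correlation of same-numbered deviations between chambers ran from 0.07 to 0.26 in sham rats and from -0.24 to 0.44 in shunt rats. Between differently numbered arrays it ran from -0.23 to 0.03 in sham rats and from -0.62 to 0.45 in shunt rats. Same-numbered values were thus all the higher ones in sham rats but not in shunt rats. This does not settle whether the pools were paired, and they were treated as unpaired. No setting gave a call of a member probe set for the difference of the shunt effects. Over all probe sets that difference had 11 calls with array weights, 1 with the trended and robust prior and 1 with the covariate. Signs were followed over the settings for 50 member differences. Of the differences of effects these include only RT1-Da and RT1-Bb 1371033_at, and the signs of the rest were not followed. Signs changed in some setting for 9 of the 50, none of which passed, and 7 of the 9 were differences between shunt and sham near 0. The other 2 were between chambers or of effects. RT1-Ba 1377334_at, left atrium minus left ventricle in shunt rats, became 0.087 with array weights and ran from -0.28 to 0.15 with 1 array left out, above 0 without LA shunt 3 (0.15) or LV shunt 2 (0.035), and the RT1-Da difference of effects became 0.047 with array weights and ran from -0.13 to 0.084 with 1 array left out, the highest without LA shunt 3. Over all probe sets, the 243 calls in left atrium became 910 with array weights, 426 with the trended prior, 758 with the covariate and 43 with only the groups compared. The 20 calls in left ventricle became 82 with the stricter filter, 38 with further quantile normalization, 160, 96, 215 and 10 under the same settings. The cause of these changes was not tested. The number of arrays limits every comparison, and signal over background was not analysed here.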
